A study of Mus musculus with 4 samples.

Results

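The proteasome genes described here were those whose names begin with Psma, Psmb, Psmc, Psmd, Psme, Psmf or Psmg followed only by digits, on array probe sets annotated to exactly 1 gene. They numbered 46 of the 12394 genes measured and were carried by 83 probe sets. Each gene was read on its probe set with the highest mean, and values are log2 intensities unless stated otherwise. Bone marrow of Mll-AF4stop knock-in mice, in which a fusion of the genes for MLL and AF4 stays silent until Cre recombinase acts, was taken 5 days after 5-FU, a drug that kills dividing blood cells. The cells were infected with a Cre-GFP retrovirus (group Cre-GFP, 2 arrays) or a GFP-control retrovirus (group control, 2 arrays), so both groups carried the knock-in allele and both came from 5-FU-treated marrow. GFP+ cells were sorted 2 days later and kept 14 days in lymphoid culture. The series' design text names the control virus MIG-Cre, whereas the sample labels name it MIG-GFP, and the labels were followed. Nothing in the labels tells whether replicates 1 and 2 were separate mice, so tests measure the spread between these arrays alone, which can be technical. Cre itself and the fusion it switches on cannot be told apart here.

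The 26S proteasome degrades proteins tagged with ubiquitin. Its 20S core is a barrel of alpha rings, which gate entry, around beta rings, which hold the protease sites, and its 19S cap binds the tag, removes it and unfolds the substrate with a ring of ATPases. In lymphoid cells and after interferon-gamma, the catalytic subunits Psmb8, Psmb9 and Psmb10 replace Psmb5, Psmb6 and Psmb7, and the PA28 activator of Psme1 and Psme2 can take the place of the cap. This immunoproteasome makes peptides suited to MHC class I. Genes of the constitutive particle are known to be driven together by the factor Nfe2l1 (NRF1) through antioxidant response elements.

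Start windows of 6 of these genes are shown as a description, and no result rests on them. Psma3, Psma1 and Psmd12 were picked from these data, for standing over 0.5 higher in replicate 2 than in replicate 1 in both groups. Psmd7, which is not shown, did so too. Psmb9, Psmb8 and Psme1 belong to the immunoproteasome. Each window runs 5′ to 3′ from 250 bases before to 50 after a listed start of the gene (RefSeq, GRCm38.p6). For Psma3 that start is not the outer end of the gene. The RefSeq span of Psma3 begins at 70969283, upstream of the window shown, which therefore lies inside the span. Capitals mark letters of the 5 motifs searched on both strands, namely the antioxidant response element core TGACNNNGC, the box known by its letters CCAAT, the binding site of Ets factors CCGGAAG, the gamma-activated site TTCNNNGAA and the core of the interferon-stimulated response element, which is TTTC repeated after any 2 letters.
Psma3 (chr12:70974373-70974672, + strand): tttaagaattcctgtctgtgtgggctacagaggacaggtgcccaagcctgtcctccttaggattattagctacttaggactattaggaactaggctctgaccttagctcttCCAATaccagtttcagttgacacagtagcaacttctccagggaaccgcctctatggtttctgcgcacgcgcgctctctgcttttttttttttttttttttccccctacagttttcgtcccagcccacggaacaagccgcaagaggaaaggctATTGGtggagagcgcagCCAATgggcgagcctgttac
Psma1 (chr7:114276067-114276366, − strand): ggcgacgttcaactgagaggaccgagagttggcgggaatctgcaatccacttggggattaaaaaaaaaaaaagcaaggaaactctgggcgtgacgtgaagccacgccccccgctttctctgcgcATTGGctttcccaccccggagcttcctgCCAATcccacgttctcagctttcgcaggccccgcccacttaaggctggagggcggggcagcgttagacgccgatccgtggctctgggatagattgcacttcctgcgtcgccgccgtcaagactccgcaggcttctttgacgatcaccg
Psmd12 (chr11:107479278-107479577, + strand): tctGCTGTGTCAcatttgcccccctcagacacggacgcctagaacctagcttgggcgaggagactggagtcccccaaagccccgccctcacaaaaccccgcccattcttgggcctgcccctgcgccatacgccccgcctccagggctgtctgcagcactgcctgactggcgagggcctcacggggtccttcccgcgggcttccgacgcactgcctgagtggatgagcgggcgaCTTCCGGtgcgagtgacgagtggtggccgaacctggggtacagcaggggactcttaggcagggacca
Psmb9 (chr17:34187281-34187580, − strand): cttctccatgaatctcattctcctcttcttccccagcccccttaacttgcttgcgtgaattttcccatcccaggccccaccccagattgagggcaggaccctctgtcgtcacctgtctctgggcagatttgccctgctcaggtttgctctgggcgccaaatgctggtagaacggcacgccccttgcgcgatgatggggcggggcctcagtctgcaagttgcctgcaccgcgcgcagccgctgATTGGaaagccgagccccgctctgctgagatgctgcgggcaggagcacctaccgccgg
Psmb8 (chr17:34197945-34198244, + strand): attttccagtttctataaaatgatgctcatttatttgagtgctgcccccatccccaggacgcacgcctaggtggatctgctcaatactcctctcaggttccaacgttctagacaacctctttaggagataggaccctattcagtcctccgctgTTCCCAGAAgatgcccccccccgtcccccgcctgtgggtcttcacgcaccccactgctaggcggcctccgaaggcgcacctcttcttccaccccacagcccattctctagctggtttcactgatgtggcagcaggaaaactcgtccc
Psme1 (chr14:55578244-55578543, + strand): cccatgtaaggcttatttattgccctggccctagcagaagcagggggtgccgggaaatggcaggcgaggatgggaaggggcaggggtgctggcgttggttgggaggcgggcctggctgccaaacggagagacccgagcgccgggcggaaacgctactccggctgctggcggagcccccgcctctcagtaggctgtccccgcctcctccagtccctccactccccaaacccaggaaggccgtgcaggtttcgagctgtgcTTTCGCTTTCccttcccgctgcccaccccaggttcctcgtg

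Psma3, Psma1 and Psmb9 held only CCAAT letters, Psmd12 an antioxidant element core and an Ets site, Psmb8 the letters of a gamma-activated site and Psme1 those of an interferon response core. A window was at hand for 38 of the 46 genes. An Ets site lay in 14 of these 38 (36.8%), against 14.0% of the windows of all genes measured here and 8.86% of all windows. The interferon response core lay in 5 (13.2%, against 3.14% and 3.44%), the antioxidant core in 6 (15.8%, against 13.8% and 12.4%), the CCAAT box in 13 (34.2%, against 37.1% and 37.4%) and the gamma-activated site in 3 (7.89%, against 6.97% and 8.30%). The 5 motifs were chosen with counts in view, and a match is a description of letters only. The antioxidant core genes were Psmb5, Psmb6, Psmc6, Psmd9, Psmd12 and Psme4. Psmb9 and Psmb8 flank Tap1, a peptide transporter gene, on chromosome 17: Psmb9 spans 34182030 to 34187330, Tap1 runs from 34187556 to 34197225 and Psmb8 starts at 34198195. The 46 genes lay on 16 chromosomes, with at most 8 on one, chromosome 11.

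The first comparison asked whether proteasome genes differ where Cre was given. No proteasome gene passed the threshold, and differences were small: 20 of the 46 were higher and 26 lower in Cre-GFP, with a median log2 difference of −0.02 beside 0.00 over all 12394 genes. In limma, 0 of the 46 passed an adjusted p of 0.05, as did 0 of all genes (0%), and adjusted p of the members started at 0.70. At an unadjusted p under 0.05, 1 member was higher (Psma8) and 0 were lower, where 2.31% of all genes were higher and 2.53% lower. In an ordinary two-sample test 0 members passed after adjustment. There 1 of the 46 (Psmg4, lower) reached an unadjusted p under 0.05, beside 557 of all 12394 genes in that test. Both Cre-GFP arrays lay below both control arrays for 7 members, beside 14.9% of all genes, and above them for 1 member, beside 15.2%. For 44 of the 46 genes the 95% confidence interval stayed within 1 log2 unit of no difference, and for 12 within 0.5. The exceptions were Psmd7, with an interval from −1.37 to 1.42, and Psme1, with one from −0.50 to 1.07.

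**Figure D1:**
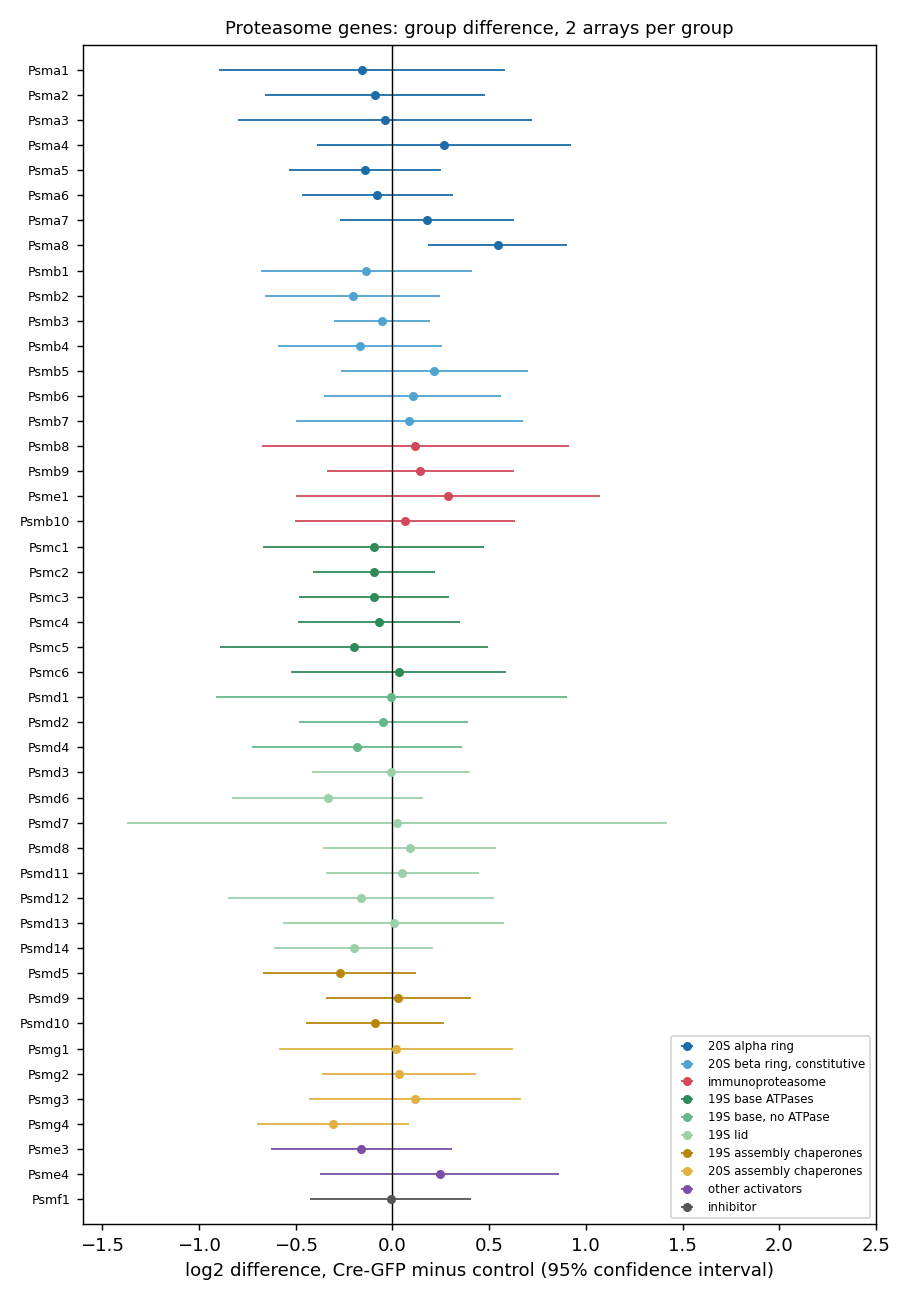
Log2 difference between Cre-GFP and control for each of the 46 proteasome genes (points, n = 2 arrays per group) with the 95% confidence interval of limma (bars), coloured by role. Every interval except that of Psma8 spans 0, and Psmd7 has the widest.

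The alpha ring subunits, which form the gated outer rings of the core, had 8 measured genes. Of these 3 were higher and 5 lower, with a median of −0.06. Psma4 read 9.57 and 10.01 in Cre-GFP 1 and 2, against 9.22 and 9.82 in control 1 and 2, which is a difference of 0.27 ± 0.27 (log2 scale, SE, 2 arrays a group). Psma7 read 10.25 and 10.46 against 10.05 and 10.31, a difference of 0.18 ± 0.18. In both genes the groups overlapped, replicate 2 stood above replicate 1, and Psma4 turned to −0.03 without control 1. Psma8, the alpha subunit of germ cells, read 4.53 and 4.28 against 3.70 and 4.03, a difference of 0.55 ± 0.15 (adjusted p = 0.70 in limma). All 4 of its values lay under the 20th percentile of their array, and the difference was −0.0036 once such values were raised to that percentile. The other 5 ranged from −0.15 (Psma1) to −0.04 (Psma3).

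Among the 7 constitutive beta ring genes, 3 were higher and 4 lower, with a median of −0.05. The 3 higher ones were the catalytic subunits. Psmb5, the chymotrypsin-like site, stood at 11.20 and 11.39 with Cre-GFP virus, against 10.87 and 11.29 in control (0.22 ± 0.20). Psmb6, the caspase-like site, read 10.77 and 10.82 against 10.50 and 10.88 (0.11 ± 0.19), and Psmb7, the trypsin-like site, 8.59 and 8.83 against 8.33 and 8.91 (0.09 ± 0.24). In each, control 1 was the lowest array, and without it the differences were 0.0048, −0.08 and −0.20. The structural subunit Psmb2 read 10.17 and 10.11 against 10.51 and 10.18 (−0.21 ± 0.19), both Cre-GFP arrays below both control arrays by a narrow margin. Psmb4, also structural, read 11.20 and 11.51 against 11.61 and 11.44 (−0.17 ± 0.17), while its other probe set differed by 0.12.

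The immunoproteasome genes were compared with the rest of the proteasome genes. On average all 4 measured ones stood higher with Cre-GFP, from 0.06 to 0.29, with a median of 0.13, against a median of −0.05 for the other 42, and none passed the threshold. Psmb8 stood at 9.86 and 10.03 with Cre-GFP virus, against 9.34 and 10.31 in control, a difference of 0.12 ± 0.32. Psmb9 read 9.19 and 9.15 against 8.83 and 9.22, a difference of 0.14 ± 0.20. Psmb10 read 9.55 and 9.84 against 9.38 and 9.88, a difference of 0.06 ± 0.23. In all 3 genes control 1 was the lowest array and control 2 the highest, so the control arrays enclosed both Cre-GFP arrays. Psme1, an alpha chain of the PA28 activator, showed the same order, with 10.26 and 10.47 against 9.61 and 10.56, a difference of 0.29 ± 0.32. Without control 1 all 4 genes were lower in Cre-GFP, with −0.36 (Psmb8), −0.05 (Psmb9), −0.19 (Psmb10) and −0.19 (Psme1). Without control 2 they were 0.60, 0.34, 0.32 and 0.76 higher.

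Psme2, the beta chain of PA28, lay only on a probe set shared with its copy Psme2b and was therefore not a member. That probe set stood at 10.74 and 11.02 with Cre-GFP virus, against 10.85 and 11.11 in control, a difference of −0.09 ± 0.18, and which of the copies it reads is uncertain. The mean of the 4 immunoproteasome genes minus the mean of the other 42 was −0.06 and −0.13 in Cre-GFP 1 and 2, against −0.51 and −0.05 in control 1 and 2. The group means were −0.09 ± 0.05 and −0.28 ± 0.32 (SD, n = 2 arrays each), 0.18 apart, less than the SD of the control arrays. Only control 1 stood apart in this measure, and without it the gap was −0.04. With 2 arrays against 2 an exact two-sided permutation test cannot go below p = 0.33, so no test of this difference was run.

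Each inducible catalytic subunit was also set against the constitutive one it replaces. The log2 ratio of Psmb9 to Psmb6 differed between the groups by 0.04 and that of Psmb10 to Psmb7 by −0.02. Relative to control 2, these ratios lay between −0.02 and 0.07 on every other array, so the subunits of each pair moved in near parallel from array to array. The ratio of Psmb8 to Psmb5 differed by −0.10 between the groups, by −0.37 without control 1 and by 0.17 without control 2. Relative to control 2 it was −0.54 in control 1 and −0.36 and −0.38 in Cre-GFP 1 and 2. For Psme1 and its relative Psme3, a nuclear activator of the core, the ratio differed by 0.45, and by 0.02 without control 1, which was −0.85 relative to control 2.

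**Figure D2:**
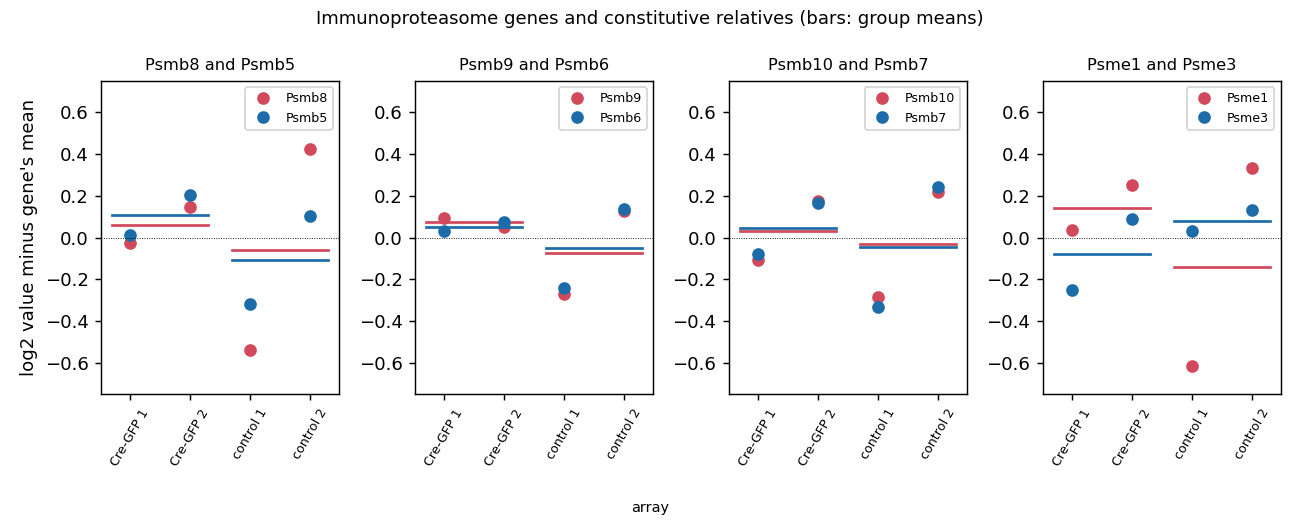
Log2 value of each gene minus its mean of the 4 arrays, for 4 immunoproteasome genes (red) and their constitutive relatives (blue), by array, with group means as bars. Psmb9 and Psmb6 lie close together on all arrays, as do Psmb10 and Psmb7, whereas in control 1 Psmb8 lies below Psmb5 and Psme1 below Psme3.

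Genes that work beside the immunoproteasome were compared in the same way. Of 14 measured genes of MHC class I loading, 6 were higher, 8 lower and 0 passed the threshold or an unadjusted p under 0.05, with a median of −0.04. H2-K1, a class I heavy chain, stood at 11.93 and 12.08 with Cre-GFP virus, against 11.43 and 12.83 in control, and H2-D1, another, 11.11 and 11.34 against 10.50 and 12.04. B2m, the light chain, read 11.44 and 11.77 against 11.29 and 11.98. These 3 genes were named after their values were seen, for having both Cre-GFP arrays between the control arrays, which held for 4 of the 14 loading genes (with Calr), 12 of the 46 proteasome genes and 16.0% of all genes. By the rule for names, Thop1, a peptidase, differed by 0.39 ± 0.25, Erap1, a peptide trimmer, by 0.18 ± 0.12, the chaperone Canx by 0.43 ± 0.34 and Tapbpl, a peptide editor, by 0.20 ± 0.18. Tap1, which lies between Psmb9 and Psmb8, read 9.48 and 8.98 against 9.12 and 9.66 (−0.16 ± 0.27).

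Among 16 interferon-gamma signalling genes, 13 stood lower and 3 higher with Cre-GFP. Their median was −0.20, with 3 lower at an unadjusted limma p under 0.05, beside 2.53% of all genes. Gbp2, an interferon-gamma-inducible GTPase, stood at 5.54 and 5.49 with Cre-GFP virus, against 7.28 and 8.81 in control, a difference of −2.52 ± 0.46 (adjusted p = 0.37 in limma). Gbp3, a related GTPase, differed by −1.12 ± 0.18 (adjusted p = 0.27 in limma), Iigp1 by −0.69 ± 0.20 and Igtp by −0.55 ± 0.29. Both Cre-GFP arrays lay below both control arrays for 6 of the 16, Gbp2, Gbp3 and Iigp1 among them, beside 14.9% of all genes. They lay above for 1, beside 15.2%. For none of the 4 immunoproteasome genes did the groups separate, and the 2 sets of genes were not tested against each other.

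The 6 ATPases of the 19S base, which unfold substrates, had 1 gene higher and 5 lower, from −0.20 (Psmc5) to 0.03 (Psmc6), with a median of −0.09. The 3 other base subunits, which bind ubiquitin or its shuttles, ranged from −0.18 (Psmd4) to −0.01 (Psmd1). Psmd1 stood at 7.37 and 7.82 with Cre-GFP virus, against 7.05 and 8.15 in control, a difference of −0.01 ± 0.37, with control 1 lowest and control 2 highest. The 8 lid subunits, which include the deubiquitinase, had 4 higher and 4 lower, from −0.33 to 0.09. Psmd6, a lid scaffold, read 10.31 and 10.50 against 10.94 and 10.53 (−0.33 ± 0.20), and its other probe set differed by −0.12. Psmd14, the deubiquitinase, read 10.86 and 11.00 against 11.00 and 11.25 (−0.20 ± 0.17). Both had Cre-GFP arrays below control arrays, by narrow margins between the nearest arrays. Psmd7, the partner of Psmd14, read 8.32 and 9.52 against 8.15 and 9.63, a difference of 0.02 ± 0.57. On this probe set the replicates of each group, not the groups, stood apart. Of its other probe sets, one differed by −0.31 ± 0.12 at an unadjusted p under 0.05 and the other by 0.15.

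Among the assembly factors, Psmd5, a chaperone of the 19S base, stood at 7.89 and 8.06 with Cre-GFP virus, against 8.20 and 8.30 in control, a difference of −0.27 ± 0.16. Psmg4, a chaperone of the 20S core, read 8.53 and 8.44 against 8.80 and 8.78, a difference of −0.31 ± 0.16. In these genes the replicates lay at most 0.17 apart and the Cre-GFP arrays below the control arrays, and both kept their sign without any single array. The other 3 core chaperones differed by 0.02 to 0.12 and the other 2 base chaperones, Psmd9 and Psmd10, by 0.03 and −0.09. Psme4, the activator PA200, read 10.47 and 10.04 against 10.27 and 9.74 (0.24 ± 0.25), and its other probe sets differed by 0.56 and 0.33. It was 1 of 4 members with replicate 1 above replicate 2 in both groups. Psme3 read 9.03 and 9.37 against 9.31 and 9.41 (−0.16 ± 0.19), with 0.10 and 0.08 on its other probe sets. Psmf1, an inhibitor of the core, read 7.91 and 7.94 against 7.79 and 8.07 (−0.01 ± 0.17), with −0.01 to 0.42 on the others.

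Across the genes with more than 1 probe set (21 of 46), the 37 probe sets not chosen differed by −0.32 to 0.56. Of these 37, 21 had the sign of the chosen one, and 9 had a value under the 20th percentile of its array.

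The second comparison set replicate 1 against replicate 2 within each group, to show how far arrays of 1 group lay apart. Most proteasome genes were higher in replicate 2, in both groups. Replicate 2 stood above replicate 1 for 37 of 46 genes in Cre-GFP, beside 40.7% of all genes, and for 35 of 46 in control, beside 46.6%. It did so in both groups for 30 of 46 (65.2%), against 24.4% of all genes and 31.8% of genes without the dimmest 40%. Of the 37 probe sets not chosen, 20 did so, and of the 28 among them with no value under the 20th percentile, 15. Only Psme4, Psmb2, Psmg3 and Psmg4 were higher in replicate 1 in both groups, as were 36.8% of all genes. The median of replicate 2 minus replicate 1 was 0.20 among Cre-GFP arrays and 0.28 among control arrays, where all genes had −0.05 and −0.02. The mean replicate gap was larger than the difference between the groups for 38 of the 46 genes, and for 69.5% of all genes. No test was made of this contrast, which is a description of 4 arrays.

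**Figure D3:**
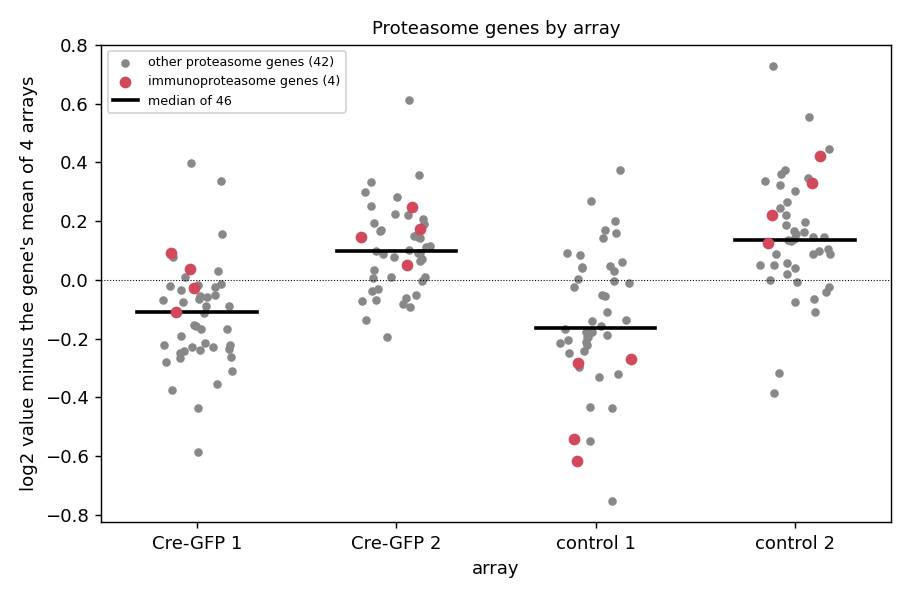
Log2 value of each proteasome gene minus its own mean of the 4 arrays, by array: 4 immunoproteasome genes in red, 42 others in grey, and the median of all 46 as a bar. Medians are −0.11 and 0.10 in Cre-GFP 1 and 2, against −0.16 and 0.14 in control 1 and 2, and the red points lie lowest in control 1.

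Psmd7 had the widest gap in both groups. It was 1.20 higher in Cre-GFP 2 than in Cre-GFP 1 and 1.48 higher in control 2 than in control 1. Its other probe sets lacked this wide gap. One read 7.67 and 7.75 in Cre-GFP 1 and 2, against 7.47 and 7.66 in control 1 and 2. The other read 5.07 and 4.98 against 5.43 and 5.24, with replicate 1 higher. Psma3, an alpha subunit, read 10.76 and 11.47 in Cre-GFP 1 and 2, against 10.83 and 11.47 in control 1 and 2, and Psma1, another, 10.09 and 10.81 and 10.33 and 10.87. Psmd12, a lid subunit named here after its values were seen, read 9.14 and 9.69 and 9.28 and 9.87. On the chosen probe sets of these 4 genes replicate 2 exceeded replicate 1 by over 0.5 in both groups, as in 1.43% of all genes. Their group means lay at most 0.16 apart. Psmd1, Psmb8 and Psme1 had gaps of 1.10, 0.96 and 0.95 in control but 0.45, 0.17 and 0.21 in Cre-GFP.

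By role, replicate 2 was higher in both groups for 6 of 8 alpha ring genes, 4 of 7 constitutive beta ring genes, 3 of 4 immunoproteasome genes, 3 of 6 ATPases, 3 of 3 other base subunits and 6 of 8 lid subunits. It was so for 1 of 4 core assembly chaperones. Psmg3, one of them and also named after its values were seen, stood at 10.32 and 10.12 with Cre-GFP virus, against 10.36 and 9.84 in control, the opposite order. Across the 46 genes the gap in Cre-GFP correlated with that in control at r = 0.64, beside 0.35 over all genes. These are correlations across genes, whose values share the same 4 arrays and are not independent.

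**Figure D4:**
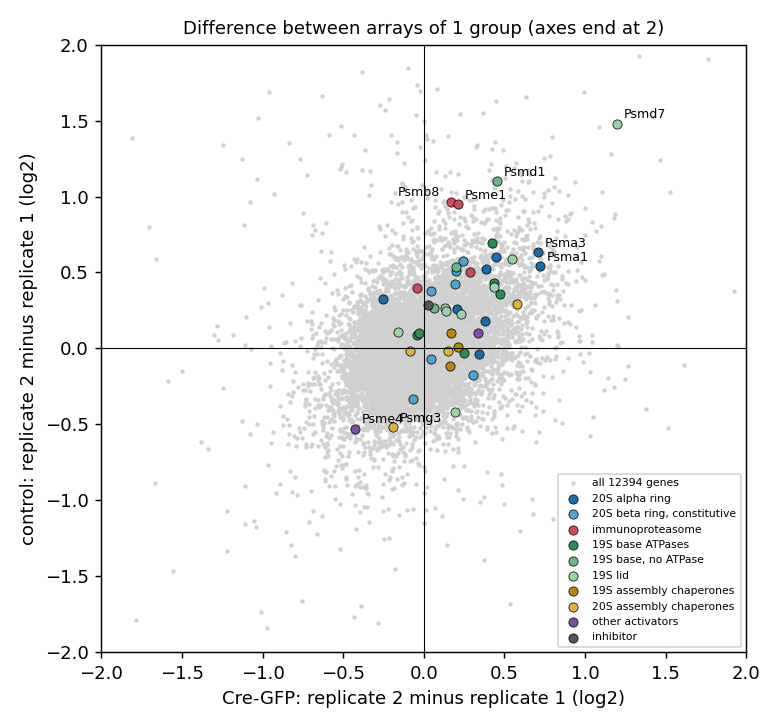
Replicate 2 minus replicate 1 in Cre-GFP (x, log2) and in control (y, log2) for all 12394 genes (grey; those beyond 2 are not drawn) and the 46 proteasome genes, coloured by role. Of the 46, 30 lie at the upper right, with Psmd7 farthest out, and 4 in the lower left.

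Of the 13 proteasome partners with other names measured, 9 were higher in replicate 2 in both groups and 0 passed the threshold between groups, with 8 higher and 5 lower in Cre-GFP (median 0.04). Pomp, the chaperone that completes the 20S core, stood at 9.64 and 10.34 with Cre-GFP virus, against 9.63 and 10.33 in control, and Uchl5, a deubiquitinase of the cap, 8.47 and 9.55 and 8.75 and 9.33; both were named after their values were seen. Sem1, a small lid subunit, differed by −0.35 ± 0.20 between groups, the ubiquitin shuttles Ubqln1 and Ubqln2 by 0.41 ± 0.24 and 0.38 ± 0.32, and Zfand5, a ubiquitin-binding activator, by −0.22 ± 0.17. Of 9 measured genes of ubiquitin and of proteasome gene control, 4 were higher in replicate 2 in both groups and 0 passed between groups (median −0.02). Nfe2l1 itself stood at 8.03 and 7.90 with Cre-GFP virus, against 8.24 and 7.83 in control, with replicate 1 higher in both groups. By the rule for names, the small Maf factors Mafg and Mafk differed by 0.15 ± 0.14 and −0.16 ± 0.16, the unfoldase Vcp by 0.16 ± 0.18 and Ngly1, which activates Nfe2l1, by −0.23 ± 0.26.

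Of the RNA and labelling measures, the beta-actin differences and 1 of the Gapdh differences were larger in replicate 1 in both groups. The 3′ minus 5′ log2 difference of the beta-actin control probe sets was 3.36 and 3.04 in Cre-GFP 1 and 2, against 3.60 and 2.81 in control 1 and 2. The 3′ minus middle difference of Gapdh was 2.14 and 1.80 and 2.70 and 1.83, whereas its 3′ minus 5′ difference, 3.99 and 4.32 and 4.32 and 4.24, did not follow the replicates. The 9 hybridization controls, transcripts added to each sample, averaged 10.90 and 10.97 in Cre-GFP, against 11.45 and 11.09 in control, highest in control 1, with no shared order of the replicates. The part of these in the proteasome values was not tested.

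Markers of cell types were read on the same arrays, and none passed the threshold. B lineage markers ranged widely in brightness. Igll1 and Vpreb1, the surrogate light chains of precursor B cells, read 13.28 to 13.83 on all arrays. Pax5 read only 5.88 to 6.22 and Ms4a1 5.04 to 5.79. The summed linear intensity of the 18 B lineage markers measured was 37388 and 36153 in Cre-GFP 1 and 2, against 41276 and 51868 in control 1 and 2. Of the 18, 15 were lower in Cre-GFP, 6 of them at an unadjusted limma p under 0.05, beside 2.53% of all genes. The 3 higher ones were Rag2 (0.38 ± 0.17, both Cre-GFP arrays above both control arrays), Rag1 (0.23 ± 0.27) and Dntt (0.19 ± 0.41). The 4 with the smallest unadjusted p were Spib (−2.26 ± 0.57), Cd79b (−1.70 ± 0.43), Cd79a (−0.80 ± 0.21) and Pou2af1 (−1.68 ± 0.49). The 17 monocyte and macrophage markers summed to 8128 and 5796 against 3026 and 5478, and 15 were higher in Cre-GFP, beside 50.1% of all genes. Their sum follows bright genes such as Lyz1, at 11.79 and 11.15 against 9.27 and 10.94. At an unadjusted limma p under 0.05, 3 were higher and 1 lower (Cybb), beside 2.31% and 2.53% of all genes. Cybb was among 3 of the 17 with all values under the 20th percentile. The 15 neutrophil markers summed to 4140 and 4816 against 1922 and 5671, lowest in control 1, where the immunoproteasome genes were also lowest. That sum follows bright genes such as S100a8, at 10.47 and 11.07 against 8.98 and 11.47. Mpo, at 7.32 and 7.32 against 6.21 and 5.93, Prtn3 and Elane were lowest in control 2. Mpo differed by 1.25 ± 0.15 (adjusted p = 0.16 in limma) and Ctsg by 0.99 ± 0.15 (adjusted p = 0.27 in limma), with both Cre-GFP arrays above both control arrays. The neutrophil list went both ways, with 8 higher and 7 lower in Cre-GFP. Both Cre-GFP arrays lay above both control arrays for 4 of the 15, beside 15.2% of all genes. They lay below for 3, beside 14.9%, namely Mmp9 (−0.54 ± 0.16), Mmp8 (−0.17 ± 0.12) and Csf3r (−0.15 ± 0.11). In bulk RNA, fewer cells of a type and less RNA per cell cannot be told apart, and the part of cell makeup in the proteasome values was not tested. Sums of the other lists ranged from 3331 to 4267 in Cre-GFP and 3631 to 4148 in control for 14 dendritic and MHC class II markers. They were 1461 to 1694 and 1205 to 1578 for 15 T and NK markers, 2126 to 2401 and 2809 to 3564 for 12 erythroid and megakaryocyte markers, and 843 to 902 and 853 to 877 for 13 stroma and endothelium markers. The dendritic and MHC class II sum follows bright Tcf4, at 11.34 and 10.97 against 11.15 and 11.10. Of these 14 markers 7 were higher and 7 lower in Cre-GFP. At an unadjusted limma p under 0.05, 3 were lower, beside 2.53% of all genes, namely H2-Ab1 (−0.92 ± 0.21), H2-Aa (−0.82 ± 0.26) and Ccr7 (−0.75 ± 0.17). Bst2 (0.67 ± 0.27) and Cd83 (0.24 ± 0.09, all values under the 20th percentile) were higher at that p, beside 2.31%. Of the 12 erythroid and megakaryocyte markers 6 were higher and 6 lower in Cre-GFP. The largest difference among them was that of Car2, at 8.61 and 8.86 against 10.21 and 10.18. Their sum follows mainly Car2 and Tfrc, the latter at 10.05 and 10.34 against 9.90 and 10.78.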

How the data were processed

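Linear probe set intensities of the 4 arrays (22690 probe sets) were deposited by the authors, made with RMA per the submitters' processing notes. For RMA no version is given in the sources used here. Per the labels' protocols, amplification started from 20 ng RNA (NuGen Ovation). Median intensities were 85.1 to 87.7. RMA as usually run equalizes the arrays and compresses dim differences, which hides any common shift. Having only 4 arrays limits the precision.

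Values were put on the log2 scale. Platform annotation gave 1 symbol to 20393 probe sets, several to 691 and none to 1606. Each of 12394 genes took its brightest probe set; 46 of 46 proteasome genes matched the RefSeq gene table. Cre-GFP and control were set against each other in limma 3.58.1 under R 4.3.3 (intensity trend, two-sided, Benjamini-Hochberg over all genes, threshold 0.05). The procedure was tested on simulated data with noise drawn independently for each array. Those data lack the correlation of same-numbered arrays and cannot show how the procedure handles it. Errors of differences are limma's standard errors.

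Names given in full were the immunoproteasome genes and their relatives, the up to 6 members per direction with the smallest unadjusted p, the 3 with the widest replicate gap in each group, members whose probe sets disagreed in sign with 1 at an unadjusted p under 0.05, and up to 4 genes with the smallest unadjusted p per pathway list (marker lists are given mainly as sums). Members and lists were chosen with earlier results of these data known. Alternatives left out each array, used the replicate number as a block, averaged probe sets, left out shared probe sets or dim genes, raised dim values, centred arrays, dropped the trend or used an ordinary two-sample test.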

Additional observations from a re-analysis of the deposited data

How the results depend on the processing

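In the alternatives that kept all 4 arrays, 0 proteasome genes passed the threshold. There the adjusted limma p of members went no lower than 0.59, for Psma8 with a gene's probe sets averaged. Without control 2 the difference of Psma8, whose values all lay under the 20th percentile, was 0.71. Over all genes, 135 passed without control 1, 34 without control 2 and 2 in the ordinary two-sample test, none of them proteasome genes, and 0 in the other settings. The median difference of the 46 genes ran from −0.18 (without Cre-GFP 2) to 0.12 (without control 2) when single arrays were left out, and took 0.11 (without Cre-GFP 1) and −0.15 (without control 1). In the other settings it was −0.03 to −0.01 over the same 46 genes, 0.01 over the 38 left without shared probe sets and −0.04 over the 45 left without the dimmest 40% of genes. Of the 46 genes, 34 changed sign on omission of at least 1 array. The difference between the immunoproteasome and the other genes was −0.04 without control 1 and 0.41 without control 2, and 0.15 to 0.22 in the other settings. The median of replicate 1 minus replicate 2 was −0.17 to −0.25 in Cre-GFP and −0.26 to −0.28 in control. Psma8 turned to −0.0036 once dim values were raised to the 20th percentile, a change that the raising itself makes, since all its values lay under it.

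The labels do not say that replicate numbers pair the arrays. Deviations of same-numbered arrays from their group means correlated at 0.35 over all genes and 0.64 over the proteasome genes. With the replicate number as a block, 0 proteasome genes and 0 of all genes passed, and 952 of all genes reached an unadjusted p under 0.05, against 600 without it. With 2 arrays per group, half-widths of the unadjusted 95% confidence intervals had a median of 0.48 on the log2 scale for the proteasome genes and 0.37 over all genes.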
